A study of Homo sapiens with 4 samples.

Results

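The genes described here encode 47 enzymes that make, interconvert, salvage and break down the purine and pyrimidine nucleotides and supply the deoxynucleotides (dNTPs) for DNA synthesis. They were chosen by name, all 47 were found among the 15575 genes of the table, and they were grouped by role into purine synthesis (12 genes), pyrimidine synthesis (5), dNTP supply (10), salvage and nucleotide kinases (11) and breakdown (9). RNA-seq was performed on U251 cells, an established human glioblastoma (GBM) line, after 72 h with a control lentiviral shRNA (Ctrl, 2 libraries, with pGreen in the library names) or with an shRNA to PRMT3 (PRMT3-KD, 2 libraries). PRMT3 is an arginine methyltransferase, and the study asked how its loss alters the transcriptome of GBM cells. All 4 libraries came from 1 line that had received a lentivirus, and neither the hairpin used for sequencing nor whether both PRMT3-KD libraries carry the same one is given in the sources used here. Effects of the hairpin and of PRMT3 loss cannot be told apart. Gene positions below are those of GENCODE 44 lifted to GRCh37, which is the hg19 build of the deposited counts.

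Purines are built stepwise on phosphoribosyl pyrophosphate (PRPP) up to inosine monophosphate, from which separate branches lead to AMP and GMP, whereas the pyrimidine ring is closed first and then joined to PRPP. Ribonucleotide reductase converts ribonucleotides to deoxyribonucleotides, and thymidylate synthase supplies the nucleotide particular to DNA. Several of these genes are known to be transcribed mainly in cycling cells, others in all cells, and salvage enzymes recycle bases and nucleosides at a lower energy cost. In GBM, as in other tumours, nucleotide synthesis is known for its demand on glucose-derived ribose and on one-carbon units.

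Total counts ranged from 24804250 to 29756313 per library, and 44 of the 47 enzyme genes had at least 100 counts in every library. The target, PRMT3, was covered by 535 counts in either Ctrl library and by 77 and 45 in the PRMT3-KD libraries (log2 fold change -3.08, SE 0.314, adjusted p = 0.0177). All adjusted p are Benjamini-Hochberg values of the quasi-likelihood test in edgeR unless DESeq2 is named. Of the glial and mesenchymal markers, VIM, NES and CD44 were abundant in all libraries and GFAP was low (13.1, 14.3, 1.26 and 5.39 CPM, that is, normalised counts scaled to the library size). S100B was low too, at 1.93 to 2.82 CPM, and SOX9, at 244 and 244 CPM in Ctrl and 146 and 164 CPM in PRMT3-KD libraries, was the only marker of this list called lower (log2 fold change -0.66, edgeR adjusted p = 0.0215). The leukocyte markers summed to 0.739 to 1.56 CPM, the oligodendrocyte markers to 0.433 to 0.739 CPM and the neuronal markers to 13.9 to 19.3 CPM. CDH5, an endothelial cadherin, was at 5.05, 5.31 and 5.08 CPM in the first 3 libraries and at 25.4 CPM in PRMT3-KD library 2, whereas VWF, the other endothelial marker in the table, was at 2.35, 2.07, 1.18 and 2.46 CPM. The Ctrl libraries differed from each other by little more than counting noise (chi-square per degree of freedom 1.41), whereas the PRMT3-KD libraries differed far more (66). Nothing in the labels says that libraries of a group came from separate cultures, so that p-values measure the spread between these libraries, which may be technical.

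Of the 47 genes, 46 passed the filter on low counts and were tested, and AMPD3 (12, 7, 5 and 5 counts) was not. A gene was called when the adjusted p was under 0.05 and the change over 1.5-fold. Among the enzyme genes, 10 were called lower in PRMT3-KD cells, against a background of 5.97% of the 13172 genes tested, and 1 was called higher, against 4.97%. The 10 fell to between 32.2% and 64.6% of the Ctrl mean. They were PRPS2, PFAS, IMPDH1 and PAICS of purine synthesis, CAD of pyrimidine synthesis, TYMS, TK1, DCTD and DUT of dNTP supply, and DPYD of pyrimidine breakdown. NT5C2, a nucleotidase, rose. In all, 36 log2 fold changes were below 0 and 10 above, with a median of -0.17 beside 0.01 over all genes tested. Both PRMT3-KD values lay below both Ctrl values for 25 genes, against a background of 33.8%, and above both for 5, against 33.3%, while 16 overlapped. Fewer cells in S phase and less RNA per cell cannot be told apart in such bulk samples.

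In purine synthesis, 4 of 12 genes were called lower and 0 higher, against backgrounds of 5.97% and 4.97% of all genes tested. With DESeq2 the same 4 were among its calls, and 11 of 12 log2 fold changes were below 0 in edgeR. PRPS2 (ENSG00000101911, chrX:12809474-12842341), 1 of the PRPP synthetases that open the pathway, fell most. It was at 72.9 and 67.0 CPM in Ctrl and at 24.9 and 25.7 CPM in PRMT3-KD libraries (log2 fold change -1.47, SE 0.0879, edgeR adjusted p = 0.0140). Its paralog PRPS1, which carries out the same reaction, was at 102 and 96.1 CPM in Ctrl and at 101 and 77.0 CPM in PRMT3-KD libraries, and these groups overlapped (log2 fold change -0.15, edgeR adjusted p = 0.519). The ratio of PRPS2 to PRPS1 counts, which does not depend on the scaling of the libraries, therefore went from 0.708 in Ctrl to 0.287 in PRMT3-KD cells.

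The promoters of these paralogs are shown because the genes share a function and differ in response. Each runs from 250 bases before to 50 bases after the start of the canonical transcript (GENCODE 44 lifted to GRCh37, 5′ to 3′ on the strand of the gene). Capitals mark letters known from E2F sites (TTTCGCGC, TTTGGCGC, TTTCCCGC or TTTGCCGC), the E-box CACGTG or the box CCAAT, searched on both strands. PRPS2 lies at chrX:12809281-12809580 on the plus strand and PRPS1 at chrX:106871490-106871789 on the plus strand.
PRPS2: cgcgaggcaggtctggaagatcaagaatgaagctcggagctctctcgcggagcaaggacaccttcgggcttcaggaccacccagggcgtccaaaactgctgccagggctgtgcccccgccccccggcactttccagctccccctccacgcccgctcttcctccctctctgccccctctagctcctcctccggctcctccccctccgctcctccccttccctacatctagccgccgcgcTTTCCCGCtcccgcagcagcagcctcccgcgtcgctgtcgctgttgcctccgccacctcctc
PRPS1: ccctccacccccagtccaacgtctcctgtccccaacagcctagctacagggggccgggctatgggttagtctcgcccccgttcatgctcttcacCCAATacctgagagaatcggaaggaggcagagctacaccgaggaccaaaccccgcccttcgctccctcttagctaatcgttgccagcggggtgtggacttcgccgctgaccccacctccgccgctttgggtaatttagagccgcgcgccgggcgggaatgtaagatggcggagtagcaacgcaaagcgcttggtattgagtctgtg
The PRPS2 sequence holds TTTCCCGC at -12 from the start and no CCAAT, and the PRPS1 sequence holds CCAAT at -156 and no full match to the E2F letters. PRPS1 does hold GCGGGAA, which is the reverse complement of TTTCCCGC without its last base. The difference between the paralogs in E2F letters therefore rests on exact matching. E2F letters were present in 4 of the 47 promoters (PRPS2, TYMS, DCK and GART), or 8.51%, and in 5.24% of 13118 promoters of tested genes. DCK and GART, with these letters at 22 and -245, had log2 fold changes of -0.07 and -0.02, so that carriers of the letters included both called genes and genes near 0. No matches of different motifs overlapped in these promoters, and a match of letters is not a binding site.

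PFAS and PAICS, which catalyse middle steps of the purine ring's assembly, were also lower. PFAS (ENSG00000178921, chr17:8150936-8173809) went from 70.2 and 73.7 to 39.4 and 32.0 CPM (log2 fold change -1.01, SE 0.126, edgeR adjusted p = 0.0202). PAICS (ENSG00000128050, chr4:57301907-57330744), the most abundant of the 47 genes by counts, went from 758 and 752 to 528 and 448 CPM (-0.63, SE 0.104, edgeR adjusted p = 0.0300). For both genes the PRMT3-KD values lay below both Ctrl values, as they did for 33.8% of all genes tested. PPAT, the committed step of the pathway, starts 645 bases from PAICS on the other strand and had a log2 fold change of -0.21 (edgeR adjusted p = 0.350), with 79.3 and 75.5 CPM in Ctrl and 75.5 and 58.7 CPM in PRMT3-KD libraries. GART, ADSL and ATIC, the remaining enzymes on the way to inosine monophosphate, had log2 fold changes of -0.02, -0.14 and -0.04, and their groups overlapped.

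At the branch to GMP, IMPDH1 (ENSG00000106348, chr7:128032331-128050040), an isozyme of the rate-limiting IMP dehydrogenase, went from 73.7 and 74.2 CPM to 31.9 and 39.9 CPM (log2 fold change -1.04, SE 0.130, edgeR adjusted p = 0.0202). IMPDH2, the more abundant isozyme in dividing cells, went from 260 and 264 to 225 and 203 CPM, a log2 fold change of -0.29 that missed the threshold (edgeR adjusted p = 0.0781). Both IMPDH2 values in PRMT3-KD cells lay below both Ctrl values, as they did for 33.8% of all genes tested. GMPS, which follows on this branch, had a log2 fold change of -0.20 (edgeR adjusted p = 0.113) and ADSS (ADSS2 in GENCODE), on the branch to AMP, one of 0.15 (edgeR adjusted p = 0.311). The annotation lists 10 pseudogenes of IMPDH1 and 7 of PAICS, so that reads shared with these copies make both counts uncertain. The same holds for RRM2, HPRT1 and NME2, with 3 each, PRPS1 and PPAT, with 2 each, and GMPS, NME1 and PNP, with 1 each.

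In pyrimidine synthesis, 1 of 5 genes was called lower, against a background of 5.97% of all genes tested. CAD (ENSG00000084774, chr2:27440237-27466811), which carries the opening activities of the pathway on a single polypeptide, went from 138 and 137 CPM to 82.4 and 70.5 CPM (log2 fold change -0.85, SE 0.101, edgeR adjusted p = 0.0198). The enzymes downstream of CAD did not pass. DHODH, the mitochondrial step, was at 19.5 and 19.2 CPM in Ctrl and at 22.0 and 12.1 CPM in PRMT3-KD libraries, on either side of the Ctrl values. UMPS, CTPS1 and CTPS2 lay at log2 fold changes of -0.14, 0.08 and 0.13 (edgeR adjusted p = 0.502, 0.598 and 0.668), with overlapping groups.

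The dNTP supply genes had the lowest median of the 5 groups, -0.77 (-0.63 in PRMT3-KD library 1, -0.96 in library 2). All 10 log2 fold changes were below 0 (DCK was at 0.08 when PRMT3-KD library 2 was left out). Both PRMT3-KD values lay below both Ctrl values for 9 of the 10, against a background of 33.8% of all genes tested. Called lower were 4 genes, against a background of 5.97%. TYMS (ENSG00000176890, chr18:657653-673578), the thymidylate synthase, went from 404 and 401 CPM to 194 and 150 CPM, or 42.7% of the Ctrl mean (log2 fold change -1.23, SE 0.143, edgeR adjusted p = 0.0193). Enzymes that supply its substrate were lower too. DUT (ENSG00000128951, chr15:48623208-48635570), which makes dUMP from dUTP, went from 79.4 and 78.9 CPM to 41.8 and 35.6 CPM (-1.03, SE 0.106, edgeR adjusted p = 0.0177). DCTD (ENSG00000129187, chr4:183811213-183839089), which makes dUMP from dCMP, went from 71.2 and 72.5 CPM to 39.5 and 40.2 CPM (-0.85, SE 0.0731, edgeR adjusted p = 0.0150). TK1 (ENSG00000167900, chr17:76170172-76183314), the cytosolic thymidine kinase, went from 104 and 106 CPM to 66.2 and 44.5 CPM (-0.93, SE 0.204, edgeR adjusted p = 0.0487), which missed the threshold with library totals as the only scaling (edgeR adjusted p = 0.0656). TYMS exons overlap ENOSF1 and TYMSOS, and those of DUT overlap DUT-AS1, in each case on the other strand, and the annotation holds 8 pseudogenes of DUT and 2 of TYMS, so that their counts are uncertain to that extent.

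**Figure D1:**
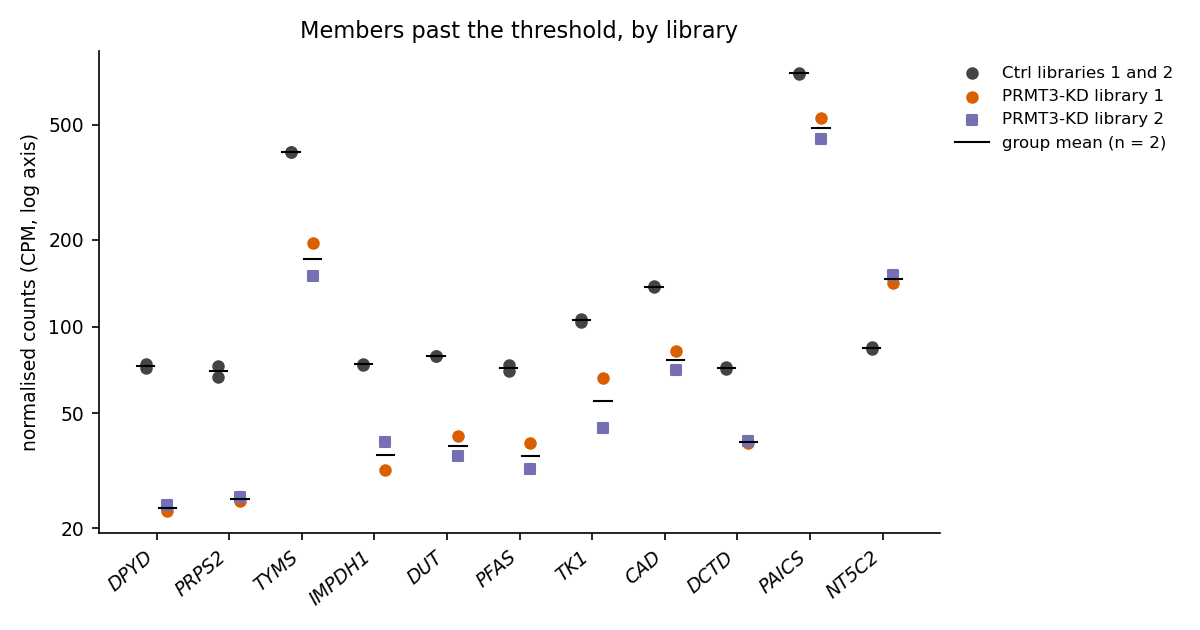
CPM (y axis, log scale) of the 11 called enzyme genes in each library, ordered by log2 fold change. Dark points are the Ctrl libraries, circles PRMT3-KD library 1, squares library 2, and bars are group means (n = 2). For 10 genes both PRMT3-KD points lie below the Ctrl points, and for NT5C2 both lie above.

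Ribonucleotide reductase did not reach the threshold in this test. RRM2, its regulatory subunit, was at 417 and 404 CPM in Ctrl and at 271 and 154 CPM in PRMT3-KD libraries (log2 fold change -0.95, SE 0.282, edgeR adjusted p = 0.0851). Both PRMT3-KD values were below both Ctrl values, but they lay 0.82 apart on the log2 scale. RRM1, the catalytic subunit, went from 156 and 158 to 112 and 83.2 CPM (-0.69, SE 0.160, edgeR adjusted p = 0.0536). With DESeq2 in place of edgeR, both passed, with adjusted p of 0.0019 for RRM2 and 0.0024 for RRM1, and DTYMK, the thymidylate kinase, also passed (log2 fold change -0.63, adjusted p = 0.0385, against 0.124 in edgeR). TK2, the mitochondrial thymidine kinase, had a log2 fold change of -0.59 (edgeR adjusted p = 0.0551). DGUOK, the mitochondrial deoxyguanosine kinase, and DCK, the deoxycytidine kinase, were nearest to 0, at -0.10 and -0.07.

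The promoters of TYMS, TK1 and RRM2 are shown as those of abundant genes of the group, in the same window and with the same letters in capitals. TYMS lies at chr18:657403-657702 on the plus strand, TK1 at chr17:76183084-76183383 on the minus strand and RRM2 at chr2:10262616-10262915 on the plus strand.
TYMS: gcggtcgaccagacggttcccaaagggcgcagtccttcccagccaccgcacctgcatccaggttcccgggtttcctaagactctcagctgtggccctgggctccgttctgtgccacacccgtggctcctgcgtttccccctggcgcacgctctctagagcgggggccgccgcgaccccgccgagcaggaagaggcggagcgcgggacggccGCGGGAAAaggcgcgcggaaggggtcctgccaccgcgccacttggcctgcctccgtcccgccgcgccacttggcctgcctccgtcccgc
TK1: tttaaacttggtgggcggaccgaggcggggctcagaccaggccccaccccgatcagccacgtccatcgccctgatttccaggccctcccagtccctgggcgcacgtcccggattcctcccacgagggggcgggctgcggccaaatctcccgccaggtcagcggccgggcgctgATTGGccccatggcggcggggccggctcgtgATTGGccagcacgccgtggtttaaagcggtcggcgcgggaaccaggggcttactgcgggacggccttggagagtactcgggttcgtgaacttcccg
RRM2: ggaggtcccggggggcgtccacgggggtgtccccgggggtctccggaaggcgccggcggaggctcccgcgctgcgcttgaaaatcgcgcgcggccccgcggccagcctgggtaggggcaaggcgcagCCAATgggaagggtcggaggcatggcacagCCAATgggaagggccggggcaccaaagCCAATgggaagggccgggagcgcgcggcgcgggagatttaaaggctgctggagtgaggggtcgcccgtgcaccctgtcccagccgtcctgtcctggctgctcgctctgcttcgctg
TYMS holds GCGGGAAA, the reverse complement of TTTCCCGC, at -39. RRM2 holds CCAAT at -123, -93 and -66, and TK1 holds ATTGG, its reverse complement, at -77 and -46. TK1 also holds GCGGGAA, all but the last base of the TYMS word, which was not counted as a match. CCAAT was present in 5 of the 10 dNTP supply promoters, in 16 of all 47 (34.0%) and in 36.4% of promoters of tested genes, so that its share among the enzymes was close to the background. Over all genes tested, promoters with and without E2F letters had median log2 fold changes of -0.08 and 0.01. CACGTG was present in 7 of the 47 promoters (14.9%, against 9.87%), namely those of AMPD2, ATIC, DCK, DHODH, NME1, PPAT and UCKL1. None of these 7 genes was called. Over all genes tested, 5.97% were called lower and 4.97% higher, so 7 genes are too few to show a difference from the background.

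A list of 19 replication genes outside the 47 moved beside the dNTP supply genes. All 19 had log2 fold changes below 0 (median -0.85), and 6 were called lower, against a background of 5.97% of all genes tested. Called were TOP2A, a topoisomerase, at -1.17, and MCM7, MCM6 and MCM4, subunits of the replicative helicase, at -1.06, -0.97 and -0.85. Also called were MKI67, a marker of cycling cells, at -0.96 and CCNA2, cyclin A2, at -0.72. The summed level of all 19 replication genes was 3416 and 3423 CPM in Ctrl and 2077 and 1552 CPM in PRMT3-KD libraries. The part of cycling cells in the lower dNTP supply genes was not tested.

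Among regulators, E2F2 and E2F3, activating factors of the G1 to S transition, were at log2 fold changes of -2.43 (edgeR adjusted p = 0.0140) and -0.61 (edgeR adjusted p = 0.0198), and E2F1 at one of -0.95 that missed the threshold (edgeR adjusted p = 0.0587) but passed it with DESeq2 (adjusted p = 0.000587). MYC, which is known to activate nucleotide synthesis genes, was at -0.57 (edgeR adjusted p = 0.0588), and ATF4, known to activate one-carbon genes, at 0.30 (edgeR adjusted p = 0.0515). HIF1A, the hypoxia factor, was at -1.60 (edgeR adjusted p = 0.0204).

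In salvage and nucleotide kinases, 0 of 11 genes were called by edgeR or DESeq2. Over all genes tested, edgeR called 5.97% lower and 4.97% higher, so that 0 of 11 does not set the group apart from the background. In each direction 1 of the 11 had an unadjusted p under 0.05 in edgeR, beside 2431 lower and 2519 higher of all 13172 genes tested. HPRT1, which returns hypoxanthine and guanine to nucleotides, came nearest. It went from 78.4 and 74.7 CPM to 57.6 and 53.9 CPM (log2 fold change -0.46, SE 0.0806, edgeR adjusted p = 0.0328), which is under 1.5-fold. APRT, the matching enzyme for adenine, was at -0.04 (edgeR adjusted p = 0.814), with 64.4 and 63.0 CPM in Ctrl and 67.7 and 55.9 CPM in PRMT3-KD libraries. CMPK1, the UMP and CMP kinase, was at 0.26 (edgeR adjusted p = 0.0722) with both PRMT3-KD values above both Ctrl values, as for 33.3% of all genes tested. ADK, the adenosine kinase, was at 0.19 (edgeR adjusted p = 0.147). UCK2, a uridine and cytidine kinase, was at -0.48 (edgeR adjusted p = 0.221), with 28.8 and 27.5 CPM in Ctrl and 24.8 and 15.6 CPM in PRMT3-KD libraries. The related UCK1 and UCKL1 were at -0.16 and -0.12. GUK1, the guanylate kinase, was at -0.26, AK1, an adenylate kinase, at 0.00, and NME1 and NME2, nucleoside diphosphate kinases that share exons with the read-through gene NME1-NME2, at 0.06 and -0.14.

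In breakdown, DPYD (ENSG00000188641, chr1:97543299-98460556), the rate-limiting enzyme of uracil and thymine degradation, showed the lowest log2 fold change of the 46 tested genes. It was at 74.2 and 72.1 CPM in Ctrl and at 23.0 and 24.2 CPM in PRMT3-KD libraries, or 32.2% of the Ctrl mean (log2 fold change -1.64, SE 0.0812, edgeR adjusted p = 0.0140). Its exons overlap those of MIR137HG on the same strand and of DPYD-AS1 on the other. NT5C2 (ENSG00000076685, chr10:104846942-105037362), a cytosolic nucleotidase that prefers IMP and GMP, went the other way, from 85.3 and 83.8 CPM to 142 and 151 CPM (0.79, SE 0.0745, edgeR adjusted p = 0.0165), and overlaps CNNM2 and INA on the other strand. For both genes the PRMT3-KD libraries lay within 0.10 of each other on the log2 scale. Since the strand setting of the counting is not given in the sources used here, overlapping genes cannot be told apart with certainty. Other enzyme genes overlap a neighbour on the same strand, among them TYMP (ODF3B and SCO2) and DCK (MOB1B).

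NT5E, the cell-surface nucleotidase that makes adenosine, was at 186 and 187 CPM in Ctrl and at 150 and 76.0 CPM in PRMT3-KD libraries (log2 fold change -0.73, edgeR adjusted p = 0.193). UPP1, the uridine phosphorylase, was at 88.8 and 84.8 CPM in Ctrl and at 108 and 55.2 CPM in PRMT3-KD libraries, above the Ctrl values in library 1 and below them in library 2. PNP, the purine nucleoside phosphorylase, was split in the same way, at 30.5 and 31.3 CPM in Ctrl and at 45.5 and 27.2 CPM in PRMT3-KD libraries. AMPD2, an AMP deaminase, was at 0.27 (edgeR adjusted p = 0.0701), with both PRMT3-KD values above both Ctrl values, as for 33.3% of all genes tested. ADA, the adenosine deaminase, and TYMP, the thymidine phosphorylase, had few counts (55 to 80 and 9 to 21 per library). Their log2 fold changes of 0.01 and -0.59 (edgeR adjusted p = 0.986 and 0.332) were not distinguishable from 0 at this depth.

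Pairs of genes for the same reaction were compared within each library, where the scaling cancels. RRM2 was compared with RRM2B, an alternative small subunit of the reductase. Their ratio went from 14.6 in Ctrl to 4.88 in PRMT3-KD cells, with log2 ratios of 3.92 and 3.82 in Ctrl and 2.74 and 1.83 in PRMT3-KD libraries. The change in log2 ratio was -1.58, or -1.13 with PRMT3-KD library 1 alone and -2.04 with library 2 alone. RRM2B itself had a log2 fold change of 0.57 (edgeR adjusted p = 0.0263), just under 1.5-fold. The log2 ratio of PRPS2 to PRPS1 changed by -1.30, from -0.48 and -0.52 to -2.02 and -1.58 (-1.52 with PRMT3-KD library 1 alone and -1.08 with library 2 alone), and that of IMPDH1 to IMPDH2 by -0.76, from -1.82 and -1.83 to -2.82 and -2.35. In these 3 pairs, and for UCK2 to UCK1 (-0.35), the groups did not overlap. For CTPS2 to CTPS1, TK1 to TK2 and NME1 to NME2 they overlapped, with changes of 0.04, -0.36 and 0.18. AMPD2 to AMPD3 (1.04, no overlap) rests on at most 12 counts of AMPD3. Of all single genes tested, 33.8% lay below and 33.3% above Ctrl without overlap, so a lack of overlap does not set these pairs apart. The exact two-sided permutation p was 0.333 for each pair without overlap, which is the smallest that 2 against 2 libraries allow, and 0.533 after adjustment over the 8 pairs.

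**Figure D2:**
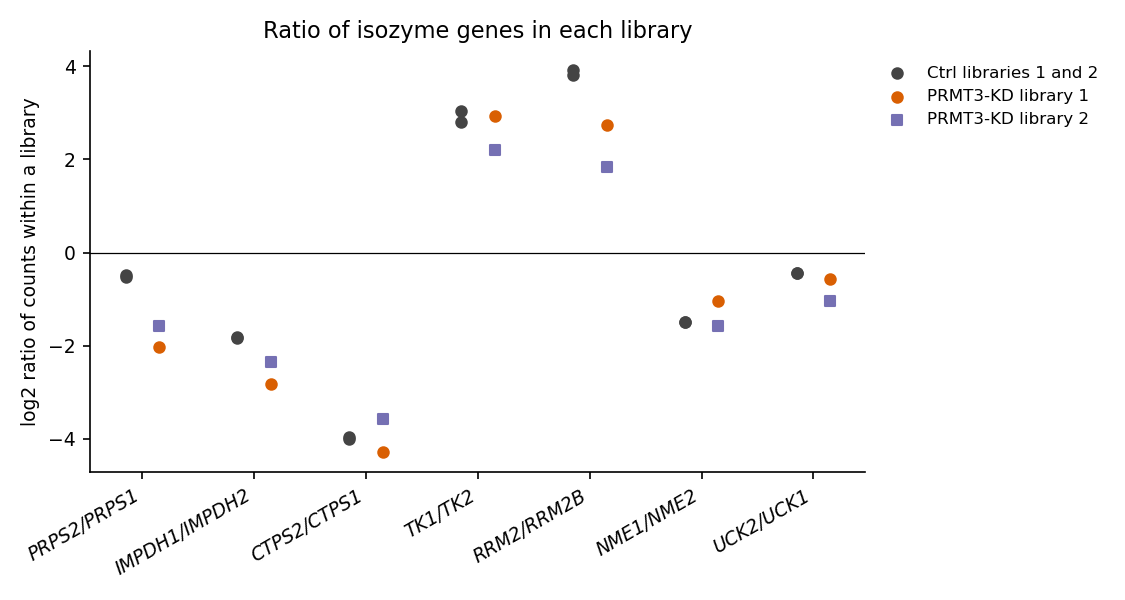
Log2 ratio of the counts of paired isozyme genes (y axis) within each library, for 7 pairs. Dark points are the Ctrl libraries, circles PRMT3-KD library 1 and squares library 2. PRMT3-KD points lie below the Ctrl points for PRPS2/PRPS1, IMPDH1/IMPDH2, RRM2/RRM2B and UCK2/UCK1, and overlap them for the others.

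The PRMT3-KD libraries did not change all enzymes to the same extent. PRMT3-KD library 2 was below library 1 for 31 of the 46 genes, beside 7070 of all 13172 genes tested. The median change of the enzyme genes was -0.14 in library 1 and -0.33 in library 2, beside 0.003 and -0.006 over all genes tested. DPYD, PRPS2, DCTD and NT5C2 differed by 0.07, 0.05, 0.03 and 0.09 between these libraries on the log2 scale. RRM2, DTYMK, TK1 and RRM1 were lower in library 2 than in library 1, with differences of -0.82, -0.65, -0.57 and -0.43, as were 19 of 19 replication genes. NT5E and UPP1 stood farthest apart, at -0.98 and -0.97. Between the Ctrl libraries no tested enzyme gene differed by more than 0.20. PRMT3 was also lower in library 2, at 1.58 CPM against 3.03 CPM, and the part of knockdown strength in these differences was not tested.

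**Figure D3:**
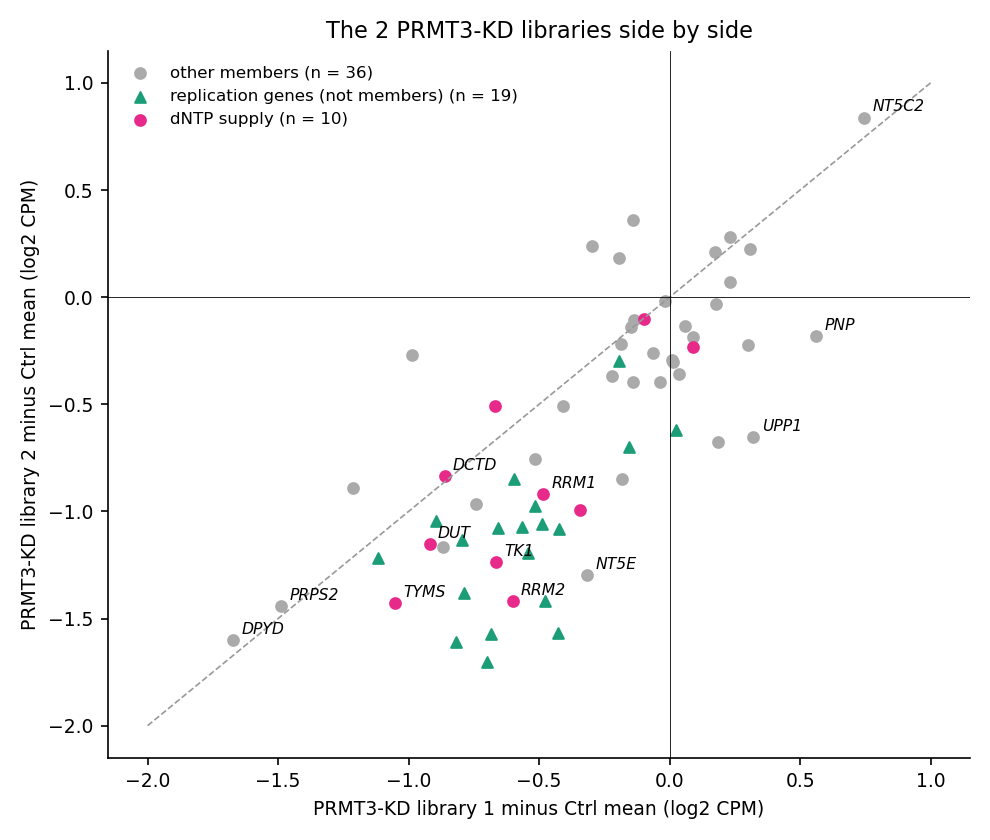
Log2 difference from the Ctrl mean in PRMT3-KD library 1 (x axis) and library 2 (y axis), both in log2 CPM. Pink circles are the 10 dNTP supply genes, green triangles 19 replication genes that are not among the 47, grey circles the other 36 tested enzyme genes, and the dashed line marks equal values. All 19 triangles lie below the line, as do 31 of the 46 circles, beside 7070 of all 13172 genes tested.

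Leaving out 1 library changed the number of calls among all genes tested as well as among the enzyme genes. Without PRMT3-KD library 1 more of both were called lower, with DHODH, DTYMK, NT5E, RRM1, RRM2, UCK2 and UPP1 gained among the enzymes. Without PRMT3-KD library 2, RRM2 and TK2 were gained and PAICS was lost. Without PRMT3-KD library 1 or 2, the median log2 fold change of the enzyme genes was -0.33 or -0.15. Over all genes tested it was -0.008 or -0.005. Without Ctrl library 1 or 2, far fewer of both were called, and DPYD stayed called lower without Ctrl library 2. The medians were then -0.17 or -0.2 for the enzyme genes, beside 0.009 or 0.004 over all genes tested. In the last pair of fits the spread was estimated from the PRMT3-KD libraries alone, and in the former pair from the Ctrl libraries alone, which differed by little more than counting noise, so that the calls gained there set 1 PRMT3-KD library against that noise. DHODH and UPP1 lay on opposite sides of Ctrl in the PRMT3-KD libraries.

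To compare levels between genes, CPM were divided by the length of the canonical transcript in kilobases. In Ctrl cells, NME2 was the highest at 401 CPM per kilobase, followed by TYMS at 250, IMPDH2 at 159, GUK1 at 133, RRM2 at 126 and PAICS at 119. In PRMT3-KD cells TYMS was at 107 and RRM2 at 65.1 CPM per kilobase, and they went from places 2 and 5 among the 47 to places 5 and 10. NT5C2 went from 24.0 to 41.5 CPM per kilobase and from place 26 to 13. PRPS2 was at 28.3 against 47.7 CPM per kilobase for PRPS1 in Ctrl cells, and at 10.3 against 43.0 in PRMT3-KD cells. DPYD was at 16.5 and 5.32 CPM per kilobase in Ctrl and PRMT3-KD cells. TYMP and AMPD3 were the lowest, under 1 CPM per kilobase in both groups.

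In related pathways, 2 of 9 folate one-carbon enzymes, which supply formyl groups for purines and methylene groups for thymidylate, were called lower and 0 higher, and their median log2 fold change was -0.45. SHMT1, the cytosolic serine hydroxymethyltransferase, went from 45.0 and 44.3 CPM to 24.2 and 24.2 CPM (-0.89, edgeR adjusted p = 0.0157), and MTHFD2L, a mitochondrial methylenetetrahydrofolate dehydrogenase, was at -0.66 (edgeR adjusted p = 0.0308). Of 35 other nucleotide enzymes and transporters tested, 2 were called lower and 1 higher, with a median of 0.05. For both lists the background was 5.97% of all genes tested called lower and 4.97% called higher. GMPR2, which converts GMP back to IMP, was at -1.25 (edgeR adjusted p = 0.0142) and SAMHD1, which degrades dNTPs, at 0.64 (edgeR adjusted p = 0.0343).

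The word CAGCTCA, of which the PRMT3 coding sequence holds 1 copy, was counted in the 3′ UTRs of canonical transcripts. It was present in 17.4% of 12758 tested genes with a 3′ UTR, and 11.7% of the carriers were called lower against 4.82% of the genes without it. Among the 47 enzyme genes, 4 carried it (AK1, DHODH, PRPS1 and RRM2), and 0 of the 10 genes called lower did. The RRM2 copy, at chr2:10271425-10271451 of GRCh37 on the plus strand, is shown with 10 bases on each side and the word in capitals.
RRM2 site: taacttctgcCAGCTCAgaccatttcc
None of the 4 carriers was called by edgeR in the full comparison, so that leaving them out could not change those calls. RRM2, 1 of the carriers, was called lower with DESeq2 (adjusted p = 0.0019), limma-voom (0.0066) and the replicate block (0.0333, edgeR). The median log2 fold change of the enzyme genes was -0.17 with the carriers and -0.18 without. The word was chosen with earlier results of these data known, so the shares above are a description and not an independent test. They were not adjusted for the length of the 3′ UTR, and a part of the word in the changes was not tested.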

How the data were processed

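Total RNA of U251 cells was sequenced in 2 Ctrl and 2 PRMT3-KD libraries. Per the study's methods, reads were aligned to hg19 with TopHat and counted with Cufflinks, and the submitters' processing notes also name CASAVA and DESeq2. The authors deposited raw counts per gene, as whole numbers with 1 column per library. Versions, annotation and strand setting are not given in the sources used here. The table had 15576 rows, of which 1 duplicate was removed, and 15560 identifiers were in GENCODE 44 lifted to GRCh37.

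Counts were tested in R 4.3.3 with edgeR 4.0.16 (filterByExpr with minimum count 10 and minimum total 15, TMM scaling, quasi-likelihood test, Benjamini-Hochberg adjustment over 13172 genes). CPM are on the TMM scale. Calls needed an adjusted p under 0.05 and over 1.5-fold. Log2 values of single libraries and ratios used a pseudocount of 0.5. The fits were tested on simulated data with the same spread in both groups. Unequal spread, as between the Ctrl and PRMT3-KD pairs here, was not simulated. Alternatives were DESeq2 1.42.0, limma 3.58.1 (voom), other scalings, filters and folds, the replicate block and leaving out each library. Named were all 47 enzyme genes, PRMT3, the listed regulators, and up to 6 called genes of each further list, and some genes that this rule names are not reported here. RRM2B and the marker genes were named after their values were seen. The enzyme genes, lists, motifs and the word CAGCTCA were chosen with earlier results of these data known.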

Additional observations from a re-analysis of the deposited data

How the results depend on the processing

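With 2 libraries per group, a change of an enzyme gene that lies within the spread of the PRMT3-KD libraries was not detectable here. Of 10 enzyme genes called lower, all 10 were also called with DESeq2 (13 in all), limma-voom with group weights (14), upper-quartile and RLE scaling and both other filters on low counts (10 each), and 9 with library totals only. MCM7 and SAMHD1 also missed the threshold with library totals (adjusted p = 0.0538 and 0.0619, edgeR). With a 2-fold threshold, 284 genes were lower and 228 higher, and 6 enzyme genes lower and 0 higher by edgeR. At an unadjusted p under 0.05 in edgeR and any fold, 17 of the 46 tested enzyme genes were lower and 3 higher. Of all 13172 genes tested, 2431 were lower and 2519 higher at that level. DESeq2 called 1 enzyme gene higher at 1.5-fold. With no fold threshold, 1105 genes were higher.

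With the replicate number as a block (replicate block), 801 genes were lower and 663 higher, and 12 enzyme genes lower, RRM1 and RRM2 being gained (adjusted p = 0.0384 and 0.0333, edgeR), and E2F1 also passed (0.0277), as it did with limma-voom (0.00518). Deviations of equally numbered libraries from their group means had a correlation of 0.058 over genes, with 2 pairs, so the numbers are not known to pair the libraries.

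Leaving out 1 library at a time, 0 to 1661 genes were lower and 0 to 1407 higher, and 0 to 17 enzyme genes lower and 0 to 1 higher. Without Ctrl library 1 all 4 counts were 0, with 1001 genes lower and 816 higher at an unadjusted p under 0.05, and without Ctrl library 2 the count of higher enzyme genes was also 0, with 1 at that level. The log2 fold change of PRMT3 ranged from -3.61 to -2.68, with adjusted p of 0.0963 and 0.0512 (edgeR) without Ctrl library 1 and 2. The median of the enzyme genes ranged from -0.33 to -0.15, that of breakdown from -0.23 to 0.05 and that of pyrimidine synthesis from -0.30 to 0.00. Signs turned in 15 genes that were not called in the full comparison. The ranges were -0.20 to 0.18 for ADA, -0.30 to 0.01 for ADSL, -0.30 to 0.24 for AK1, -0.19 to 0.08 for APRT, -0.13 to 0.05 for ATIC, -0.03 to 0.17 for CTPS1, -0.15 to 0.36 for CTPS2 and -0.23 to 0.08 for DCK. They were -0.68 to 0.18 for DHODH, -0.05 to 0.01 for GART, -0.22 to 0.30 for NME1, -0.18 to 0.56 for PNP, -0.36 to 0.03 for PRPS1, -0.30 to 0.00 for UMPS and -0.65 to 0.32 for UPP1. ADA was also at -0.03 with library totals and at 0.00 with the replicate block, AK1 at 0.00 with DESeq2, RLE and upper-quartile scaling, and the breakdown median at 0.00 with a minimum of 10 counts per library. The cause of these changes was not tested.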
